A study of Mus musculus with 3 samples.

Results

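The step from Day04 to Day05 of reprogramming was measured by setting the 3 libraries of Day05 against the 3 libraries of Day04, which are 6 of the 129 library columns in the count table. The members were chosen by the day and replicate number in the column names. The study followed mouse embryonic fibroblasts (MEFs) through the first days of reprogramming to pluripotency, in siRNA knockdowns and in an untransfected time course from Day00 to Day06. RNA was counted by CEL-Seq2, a method that tags the 3′ end of each transcript with a unique molecular identifier, here on bulk RNA.

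Both groups were MEFs of the BL6 strain at passage 2 that carried lentiviruses for a doxycycline-inducible cassette of Oct4, Sox2, Klf4 and c-Myc and for the rtTA activator, at a multiplicity of infection of 1. Both were grown with doxycycline at 2 µg/mL, 3 µM chiron (an inhibitor of GSK3), 0.25 µM Alk5i (an inhibitor of the TGF-β receptor), 50 µg/mL ascorbic acid, 10% serum and LIF. The groups differed by the day of harvest, and the day cannot be told apart from anything else that differed between the harvests. The replicate number is that of the pool in which a library was sequenced, and each pool held 1 library of each day. The cells took up the viruses at random, and the bulk RNA mixes cells at different stages. In bulk RNA, fewer cells of a type and less RNA per cell cannot be told apart.

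In the first days of reprogramming, fibroblasts lose matrix, contractile and other mesenchymal gene products and gain epithelial adhesion molecules, a change known as the mesenchymal-to-epithelial transition. Genes of the pluripotency network follow in a minority of the cells. Dividing cells also make many ribosomes, and c-Myc is known to raise ribosomal and nucleolar genes.

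The 6 libraries held 81284 to 167426 counts and 8918 to 11601 detected genes, and replicate 3 was the deepest on both days. The counts of any 2 libraries of a day were further apart than counting error alone gives (chi-square divided by the number of genes, 1.38 to 2.01). The study calls its sequencing replicates independent but does not spell out separate cultures for the time course. The p-values therefore measure a spread between libraries of the same condition that may be technical. That spread was estimated over all 122 fitted libraries, transfected ones included, and not over these 6 alone. Summed counts of 9 fibroblast markers were 2693 to 3301 per 1000000 counts on Day04 and 1858 to 2515 on Day05, without overlap; 7 of the 9 were tested, Col1a1 and Col1a2 fell, Dcn rose, and none was at 0. Without Col1a1 and Col1a2 the other 7 summed to 1436 to 1867 on Day04 and 1316 to 1681 on Day05, and the days overlapped. Of the 7 macrophage markers, Ptprc and Cd52 were at 0 in all 6 libraries, and the list summed to 3 to 11 counts on Day04 and 2 to 9 on Day05. All 4 erythroid markers were at 0, and 4 of 6 endothelial, 3 of 5 keratinocyte, 3 of 5 skeletal muscle, 4 of 5 trophoblast and 3 of 5 primitive endoderm markers were too. The 4 neural markers, of which none was at 0, summed to 23 to 35 counts on Day04 and 18 to 28 on Day05, and the 2 tested were not called. The 6 epithelial markers summed to 0 to 4 counts on Day04 and 4 to 12 on Day05, with Cldn6 at 0, and the 7 pluripotent markers to 0 to 3 and 1 to 5, with Esrrb and Zfp42 at 0. Per 1000000 counts the epithelial markers were at 0 to 38.9 on Day04 and 47.7 to 111 on Day05, without overlap but on few counts. The pluripotent markers were at 0 to 21.3 and 11.9 to 61.5, with overlap.

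Between Day04 and Day05, 150 genes changed, 5% of the 3002 tested. Of these, 109 were higher on Day05 (3.63% of tested genes) and 41 lower (1.37%). Among the risers were Ifitm1, Fgfbp1, Ptgr1, Adh7, Sub1, Prdx1, Mt2 and 13 genes by the ribosomal protein list, and among the fallers Nfib, Met, Wnt5a, Igf2, both chains of collagen I and the β-tubulin Tubb5. Fold changes of called genes ran from 0.41 to 2.71 on the log2 scale upward, with a median of 0.91, and were of 0.47 to 2.40 in size downward, with a median of 1.20. A gene was called at an adjusted p under 0.05 in edgeR's quasi-likelihood test, with the replicate as a block. At an unadjusted p under 0.05 there were 562 genes (18.7%). In 91 of the 109 risers all Day05 libraries lay above all Day04 libraries, as they did in 10.5% of tested genes, and in 37 of the 41 fallers they lay below, as in 9.29%. With RLE size factors in place of TMM scaling, 91 genes were higher and 57 lower, so that 61.5% of calls were upward in place of 72.7%. Without the replicate block 21 genes were called. Leaving out replicate 1, 2 or 3 gave 112, 45 and 23 genes, and 17 of the 150 passed each time, among them Adh7, Hsp90aa1, Ifitm1, Il1rl1, Lgals3, Mmp3, Mt2, Prdx1, Prl2c3, Ptgr1, Rps23-ps1, Srsf3, Sub1, Nfib, Nufip2 and Tubb5.

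**Figure D1:**
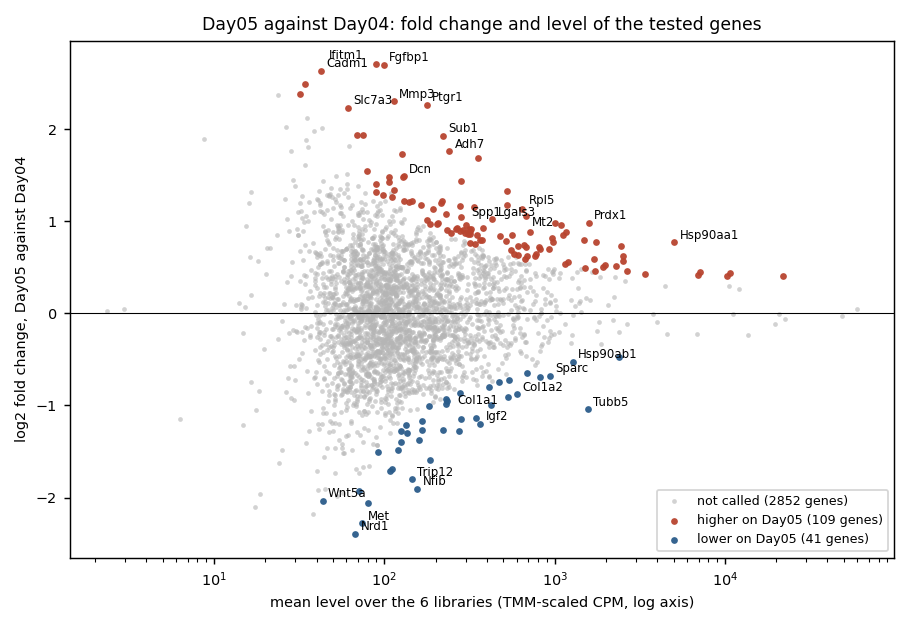
Each point is 1 of the 3002 tested genes, with its mean level over the 6 libraries in TMM-scaled counts per 1000000 (CPM) on a log axis and its log2 fold change, Day05 against Day04. The 109 red genes were higher on Day05 and the 41 blue genes lower, with log2 fold changes from -2.40 to 2.71.

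By fitted log2 fold change, the largest rise among the named genes was that of Ifitm1 (chr7:140967221-140969825, GRCm38, the build of mm10), an interferon-induced membrane protein. In replicates 1, 2 and 3, Ifitm1 was at 44.5, 9.97 and 15.0 CPM on Day04 and 253, 92.9 and 119.7 CPM on Day05, where CPM are counts per 1000000 scaled by TMM over the tested genes. All Day05 values lay above all Day04 values, with a log2 fold change of 2.71 ± 0.56 (SE, edgeR adjusted p 0.000346). Fgfbp1 (chr5:43978858-43981779) encodes a secreted carrier that frees fibroblast growth factors from the matrix. Its levels, in the same replicate order used throughout, were 33.4, 49.8 and 0 CPM on Day04 and 126, 212 and 173 CPM on Day05. Day05 was again above Day04 in every library, with a log2 fold change of 2.70 ± 0.49 (SE, edgeR adjusted p 2.25e-05, 0.0724 without replicate 3).

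Ptgr1 (chr4:58965439-58987119), a reductase that clears prostaglandins and reactive aldehydes, was at 44.5, 89.7 and 37.6 CPM on Day04 and 303, 438 and 153 CPM on Day05. It had a log2 fold change of 2.27 ± 0.40 (SE, edgeR adjusted p 1.25e-05), with replicate 2 highest on both days and no overlap between days. Adh7 (chr3:138217760-138233382) is an alcohol dehydrogenase that oxidises retinol. Adh7 was at 122, 129.6 and 82.7 CPM on Day04 and 442, 305 and 366 CPM on Day05. The lowest Day05 library was above the highest Day04 library, with a log2 fold change of 1.76 ± 0.31 (SE, edgeR adjusted p 1.5e-05).

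Sub1 (chr15:11981339-11996983), a single-stranded DNA-binding coactivator of transcription, was at 66.8, 79.8 and 120.3 CPM on Day04 and 341, 332 and 386 CPM on Day05. The Day05 libraries lay close together and the days did not overlap, with a log2 fold change of 1.93 ± 0.31 (SE, edgeR adjusted p 2.23e-06). Mmp3 (chr9:7445822-7455975), the matrix protease stromelysin-1, was at 0, 89.7 and 15.0 CPM on Day04 and 126, 358 and 93.1 CPM on Day05. Replicate 2 was highest on both days, each Day05 library was above all of Day04, the lowest by a narrow margin, and the log2 fold change was 2.31 ± 0.50 (adjusted p 0.000867).

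Slc7a3 (chrX:101079210-101086020), a transporter of arginine and lysine, was at 44.5, 19.9 and 0 CPM on Day04 and 50.6, 186 and 66.5 CPM on Day05. Replicate 2 rose most, the days did not overlap, and there was a log2 fold change of 2.23 ± 0.62 (SE, edgeR adjusted p 0.0151, 0.354 and 0.197 without replicates 2 and 3). Its counts were 4, 2 and 0 on Day04 and 4, 14 and 10 on Day05. Replicate 1 had the same count on both days, so its higher CPM and the lack of overlap came from scaling. The cell adhesion molecule Cadm1, the zinc finger gene Zfp738 and the noncoding RNA Snhg14 each had 3 counts on Day04 in all. Cadm1 had 19 counts on Day05, which was 6.71-fold higher after scaling to the libraries' totals, with a 95% counting interval of 1.98 to 35.4, and its days overlapped. Zfp738 was 6.36-fold higher by counts (interval 1.86 to 33.7) and Snhg14 6.01-fold higher (interval 1.74 to 32.0). None of these calls held in a run with a replicate left out, and Zfp738 was not tested without replicate 3. Zfp738 and Snhg14 each have 2 near-identical 3′ ends elsewhere, and exons of Snhg14 overlap Ube3a on the opposite strand, so their counts are uncertain. Annotated exons on the opposite strand also overlap Adh7, Mt2, Tcp1, Nhp2, Uqcrc2, Rpl5, Rpl22l1, Rpl28, Nrd1, Wnt5a, Igf2, Hif1a, Zfp738 and Gm44510, and without a stated use of strand in the counting their reads cannot be told apart. The pseudogene Gm4468 and the unclassified transcript Gm44510 complete the 12 largest rises, with log2 fold changes of 1.94 ± 0.49 (adjusted p 0.00644, not tested without replicate 3) and 1.94 ± 0.57 (adjusted p 0.0247, 0.290 and 0.0952 without replicates 1 and 2, and not tested without replicate 3).

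The antioxidant list held 3 risers and no faller among 27 tested genes, where 3.63% of all tested genes rose and 1.37% fell, with a median log2 fold change of 0.21 against 0.02 over all tested genes. Prdx1, a peroxiredoxin that reduces hydrogen peroxide, was at 1102, 1067 and 1015 CPM on Day04 and 1605, 2362 and 2381 CPM on Day05. Its Day05 libraries were all above Day04, with a log2 fold change of 0.99 ± 0.16 (SE, edgeR adjusted p 4.55e-06), but 2 copies share its 3′ end. Mt2, a metal-binding metallothionein, was at 345, 578 and 399 CPM on Day04 and 822, 969 and 964 CPM on Day05. The days did not overlap, and the log2 fold change was 1.06 ± 0.20 (adjusted p 6.43e-05). Mgst1, a membrane-bound glutathione transferase, had a log2 fold change of 0.78 ± 0.22 (adjusted p 0.0202, 0.159, 0.0574 and 0.0869 without replicates 1, 2 and 3). A further 24 tested members did not pass, among them Sqstm1 with a log2 fold change of -0.84 ± 0.35 (adjusted p 0.160).

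Promoters of 4 of these risers, chosen for the motif and not for a shared course over the days, are shown because each holds the AP-1 letters TGANTCA, the site bound by Fos and Jun proteins, which read the same on both strands. Each runs from 250 bases before to 50 bases after the RefSeq start, on GRCm38.p6, from 5′ to 3′. Capitals mark the AP-1 letters and, in Prdx1 alone, also a GC box.
Adh7 (chr3:138217523-138217822, plus strand): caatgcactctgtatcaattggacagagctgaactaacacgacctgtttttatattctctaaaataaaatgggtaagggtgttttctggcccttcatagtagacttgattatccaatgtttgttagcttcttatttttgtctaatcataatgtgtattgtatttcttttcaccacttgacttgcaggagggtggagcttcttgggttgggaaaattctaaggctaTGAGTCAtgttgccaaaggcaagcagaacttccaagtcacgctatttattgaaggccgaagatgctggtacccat
Mmp3 (chr9:7445572-7445871, plus strand): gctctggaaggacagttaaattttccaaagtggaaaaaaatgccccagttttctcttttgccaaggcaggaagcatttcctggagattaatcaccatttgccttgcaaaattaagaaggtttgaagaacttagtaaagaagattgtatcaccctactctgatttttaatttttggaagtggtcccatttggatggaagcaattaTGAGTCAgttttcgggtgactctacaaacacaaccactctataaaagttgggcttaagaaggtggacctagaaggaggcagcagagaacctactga
Mt2 (chr8:94172368-94172667, plus strand): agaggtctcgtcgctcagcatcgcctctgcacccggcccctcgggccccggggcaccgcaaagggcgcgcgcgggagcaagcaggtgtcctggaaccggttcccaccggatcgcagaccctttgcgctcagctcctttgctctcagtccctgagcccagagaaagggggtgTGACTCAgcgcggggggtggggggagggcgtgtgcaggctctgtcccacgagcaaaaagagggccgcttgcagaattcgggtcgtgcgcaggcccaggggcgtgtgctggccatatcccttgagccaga
Prdx1 (chr4:116685349-116685648, plus strand): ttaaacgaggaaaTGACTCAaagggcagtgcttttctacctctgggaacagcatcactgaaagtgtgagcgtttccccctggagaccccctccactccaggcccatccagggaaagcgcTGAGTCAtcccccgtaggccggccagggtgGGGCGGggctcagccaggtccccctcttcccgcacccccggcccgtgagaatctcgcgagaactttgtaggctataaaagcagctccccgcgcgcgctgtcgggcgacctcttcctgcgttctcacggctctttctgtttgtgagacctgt
The match began 25 bases before the start in Adh7, 46 in Mmp3 and 79 in Mt2, and 237 and 131 in Prdx1. Of the 109 risers 47 had a promoter in the RefSeq table, and 5 of these (10.6%) held the AP-1 letters, against 8.97% of all 27025 genes with a promoter and 5.86% of 1912 tested ones. Among 32 fallers with a promoter it was 1, or 3.12%, that of Met. The octamer ATGCAAAT was in 2 risers (4.26%), 0 fallers, 1.46% of tested genes and 1.97% of all promoters. In the same order, the E-box CACGTG was in 8.51%, 15.6%, 13.5% and 8.09%, the CArG box in 2.13%, 3.12%, 2.41% and 1.81%, and the GC box GGGCGG in 59.6%, 65.6%, 73.7% and 38.2%. Both strands were searched, the letters of different motifs may overlap, and a match is a description, not a binding site.

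Among the protein genes of the cytoplasmic ribosome, 13 of 76 tested rose and 1 fell, beside 3.63% and 1.37% of all tested genes, with a median log2 fold change of 0.41 and 63 members above 0. The median was 0.35 under RLE size factors. Rplp1, a protein of the ribosomal stalk, was at 2036, 1984 and 1970.0 CPM on Day04 and 2996, 3185 and 3053 CPM on Day05. The 3 libraries of a day nearly coincided and the days did not overlap, with a log2 fold change of 0.62 ± 0.14 (SE, edgeR adjusted p 0.00130, 0.0726 and 0.0683 without replicates 2 and 3). Rpl5, which carries 5S RNA into the large subunit, was at 278, 459 and 466 CPM on Day04 and 669.9, 743 and 1237 CPM on Day05. Its days did not overlap either, with a log2 fold change of 1.13 ± 0.20 (SE, edgeR adjusted p 1.16e-05, 0.0625 without replicate 3). Further risers by the list's pattern included Rpl7, Rpl22l1, Rpl23, Rpl41, Rps4x, Rps15a, Rps20, Rps23, Rps24 and the pseudogene Rps3a2, with log2 fold changes of 0.46 to 1.29 and edgeR adjusted p of 0.00117 to 0.0471. Without replicate 3 none of these 10 passed (0.180 to 0.371), and without replicate 2 only Rpl23 (0.0207) and Rps23 (0.00303) did. Rpl22l1 and Rps15a lost the call whichever replicate was left out, and Rpl41 (0.0876) and Rps4x (0.0590) did not pass under RLE size factors. Rpl28, a protein of the large subunit, went the other way, at 245, 129.6 and 188 CPM on Day04 and 37.9, 53.1 and 99.8 CPM on Day05, with a log2 fold change of -1.40 ± 0.39 (SE, edgeR adjusted p 0.0169, 0.312, 0.0686 and 0.0555 without replicates 1, 2 and 3). Every ribosomal gene named here has at least 1 near-identical copy, so reads may have been shared between them and the copies.

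Pseudogenes and copied genes were set against their share among tested genes. Of 108 risers in the annotation 39 were pseudogenes (36.1%) and 31 were other genes with a near-identical 3′ end elsewhere (28.7%), which leaves 38 with neither. Of the 41 fallers 0 were pseudogenes and 4 had such a copy (9.76%). Among the 2954 tested genes in the annotation, 16.2% were pseudogenes and 13.2% other genes with a copy. These shares were not tested. Ribosomal protein genes took 3.24% to 3.68% of the counts of the Day04 libraries and 3.99% to 4.79% on Day05. Tested pseudogenes took 13.2% to 14.3% on Day04 and 15.3% to 17.3% on Day05.

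The changes also moved with transcript length. The longest annotated transcript had a median of 1096.5 bases among risers, 4722 among fallers and 2846 among tested genes not called. Without pseudogenes these medians were 2101, 4722 and 3295 bases. The shortest tertile of tested genes (57 to 1756 bases) had a median log2 fold change of 0.28 and held 64 risers and 4 fallers. The longest tertile had a median of -0.20, with 17 risers and 26 fallers. In replicates 1, 2 and 3 alone, the median difference of log2(CPM + 1) was 0.18, 0.24 and 0.33 in the shortest tertile and -0.20, -0.17 and -0.26 in the longest. From Day05 to Day06, a comparison that shares the Day05 libraries, the medians were -0.24 and 0.20. The part of length in the calls was not tested.

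**Figure D2:**
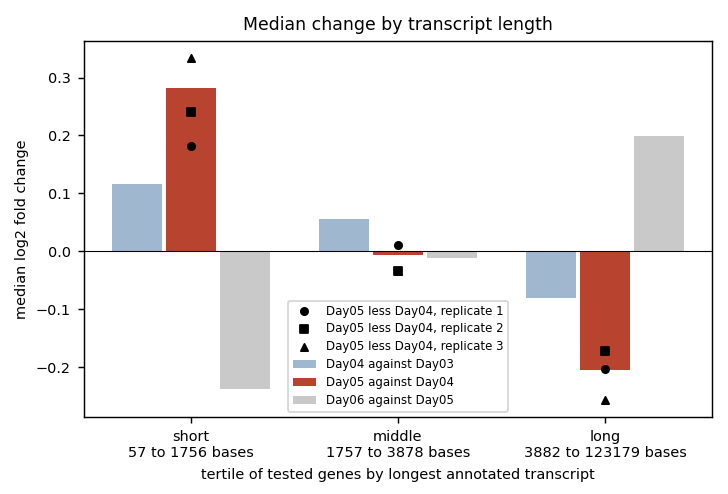
Bars give the median log2 fold change of tested genes in tertiles by the length of the longest annotated transcript, for Day04 against Day03, Day05 against Day04 and Day06 against Day05; black points give the median difference of log2(CPM + 1) between Day05 and Day04 in each replicate. For Day05 against Day04 the median was 0.28 in the shortest tertile and -0.20 in the longest, and all 3 replicates had those signs.

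Mitochondrial transcripts took 19.9% to 20.8% of counts on Day04 and 20.4% to 21.5% on Day05. Of 17 tested, mt-Nd1, mt-Co3 and mt-Atp6 rose and 0 fell, with a median of 0.21; over all tested genes 3.63% rose and 1.37% fell. mt-Co3, a subunit of cytochrome oxidase, was at 9092, 9491 and 8053 CPM on Day04 and 10642, 12978 and 11705 CPM on Day05. Its days did not overlap, with a log2 fold change of 0.41 ± 0.12 (SE, edgeR adjusted p 0.0247, 0.277 and 0.354 without replicates 2 and 3), and it has a nuclear copy, Gm28437, that was called as well, as was Gm10925, the nuclear copy of mt-Atp6. The log2 fold change of mt-Nd1 was 0.41 ± 0.12 (adjusted p 0.0220, 0.268 and 0.269 without replicates 2 and 3) and that of mt-Atp6 0.42 ± 0.13 (adjusted p 0.0271, 0.0565, 0.221 and 0.233 without replicates 1, 2 and 3). Of 50 nuclear genes of the respiratory chain, 2 rose and 0 fell, which is near the 3.63% and 1.37% of all tested genes, with 39 above 0 and a median of 0.30. These were Uqcrc2, a core subunit of complex III, at 1.26 ± 0.40 (adjusted p 0.0405, 0.123, 0.254 and 0.154 without replicates 1, 2 and 3), and Atp5j2, a subunit of ATP synthase, at 0.97 ± 0.31 (adjusted p 0.0405, 0.156, 0.109 and 0.297 without replicates 1, 2 and 3). The calls of mt-Atp6, Uqcrc2 and Atp5j2 did not pass 0.05 under RLE size factors.

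Ribosome biogenesis gave 3 risers and 0 fallers of 25 (3.63% and 1.37% over all tested genes), with a median of 0.08. Npm1, the nucleolar chaperone nucleophosmin, was at 2715, 2861 and 3113 CPM on Day04 and 3134, 3888 and 4682 CPM on Day05. The days did not overlap but lay close, with a log2 fold change of 0.43 ± 0.14 (SE, edgeR adjusted p 0.0438, 0.277 and 0.422 without replicates 2 and 3). The adjusted p under RLE size factors did not pass, and its near-identical copy Gm14681 was called higher too. Nop58 and Nhp2, core proteins of the snoRNPs that modify ribosomal RNA, had log2 fold changes of 0.74 ± 0.20 (adjusted p 0.0149, 0.130 and 0.228 without replicates 2 and 3) and 0.91 ± 0.26 (adjusted p 0.0214, 0.0830, 0.111 and 0.130 without replicates 1, 2 and 3).

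The cytosolic chaperones split. Hsp90aa1, the stress-inducible HSP90, was at 3606, 3788 and 3797 CPM on Day04 and 5384, 7219 and 6504 CPM on Day05. All Day05 libraries were higher, with a log2 fold change of 0.77 ± 0.13 (SE, edgeR adjusted p 9.98e-06), and the call held without each replicate in turn. Hsp90ab1, the constitutive HSP90, was at 1436, 1166 and 1895 CPM on Day04 and 1327, 756 and 1077 CPM on Day05. Here the days overlapped, every replicate was lower on Day05, and the log2 fold change was -0.52 ± 0.17 (adjusted p 0.0457, 0.261 and 0.537 without replicates 2 and 3). Tcp1, a subunit of the CCT chaperonin, rose by 0.63 ± 0.19 (adjusted p 0.0267, 0.149 and 0.354 without replicates 2 and 3). These 3 were the called members of 24 tested chaperones, beside 5% of all tested genes, and the median was -0.07. Copies of Hsp90aa1 share its 3′ end.

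Single risers came from other lists, and of these Dcn, Spp1 and Lgals3 had fallen from Day03 to Day04 before they rose. Dcn (chr10:97479609-97518143), the collagen-binding proteoglycan decorin, was at 55.6, 79.8 and 67.7 CPM on Day04 and 164, 186 and 219 CPM on Day05. The days did not overlap, with a log2 fold change of 1.48 ± 0.38 (SE, edgeR adjusted p 0.00684, 0.204 without replicate 3). Spp1, the secreted phosphoprotein osteopontin, was at 434, 249 and 301 CPM on Day04 and 669.9, 690.0 and 818 CPM on Day05. It was above Day04 in all Day05 libraries, with a log2 fold change of 1.17 ± 0.24 (SE, edgeR adjusted p 0.000315, 0.0646 without replicate 3). Lgals3, the β-galactoside-binding lectin galectin-3, was at 245, 299 and 293 CPM on Day04 and 594, 637 and 505 CPM on Day05. Its days did not overlap either, with a log2 fold change of 1.02 ± 0.23 (SE, edgeR adjusted p 0.00150). The histone variant H2afz rose by 0.85 ± 0.17 (adjusted p 0.000303, 0.0848 without replicate 3), the splicing factor Srsf3 by 0.88 ± 0.17 (adjusted p 6.43e-05), the glycolytic enzyme Pgk1 by 0.82 ± 0.19 (adjusted p 0.00171, 0.0713 and 0.0839 without replicates 2 and 3), the nascent chain protein Naca by 0.86 ± 0.19 (adjusted p 0.00133, 0.148 without replicate 3) and the myosin light chain Myl6 by 0.62 ± 0.19 (adjusted p 0.0281, 0.0613, 0.110 and 0.338 without replicates 1, 2 and 3). All 5 have a near-identical copy. Outside the rule for naming, and chosen after their values were seen, Prl2c3 and Prl2c2, proliferin genes that are near-identical to each other, had log2 fold changes of 1.69 ± 0.26 (adjusted p 1.46e-06) and 1.16 ± 0.26 (adjusted p 0.00102, 0.0521 without replicate 2), and Il1rl1, the receptor of interleukin 33, one of 1.32 ± 0.26 (adjusted p 0.000104).

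**Figure D3:**
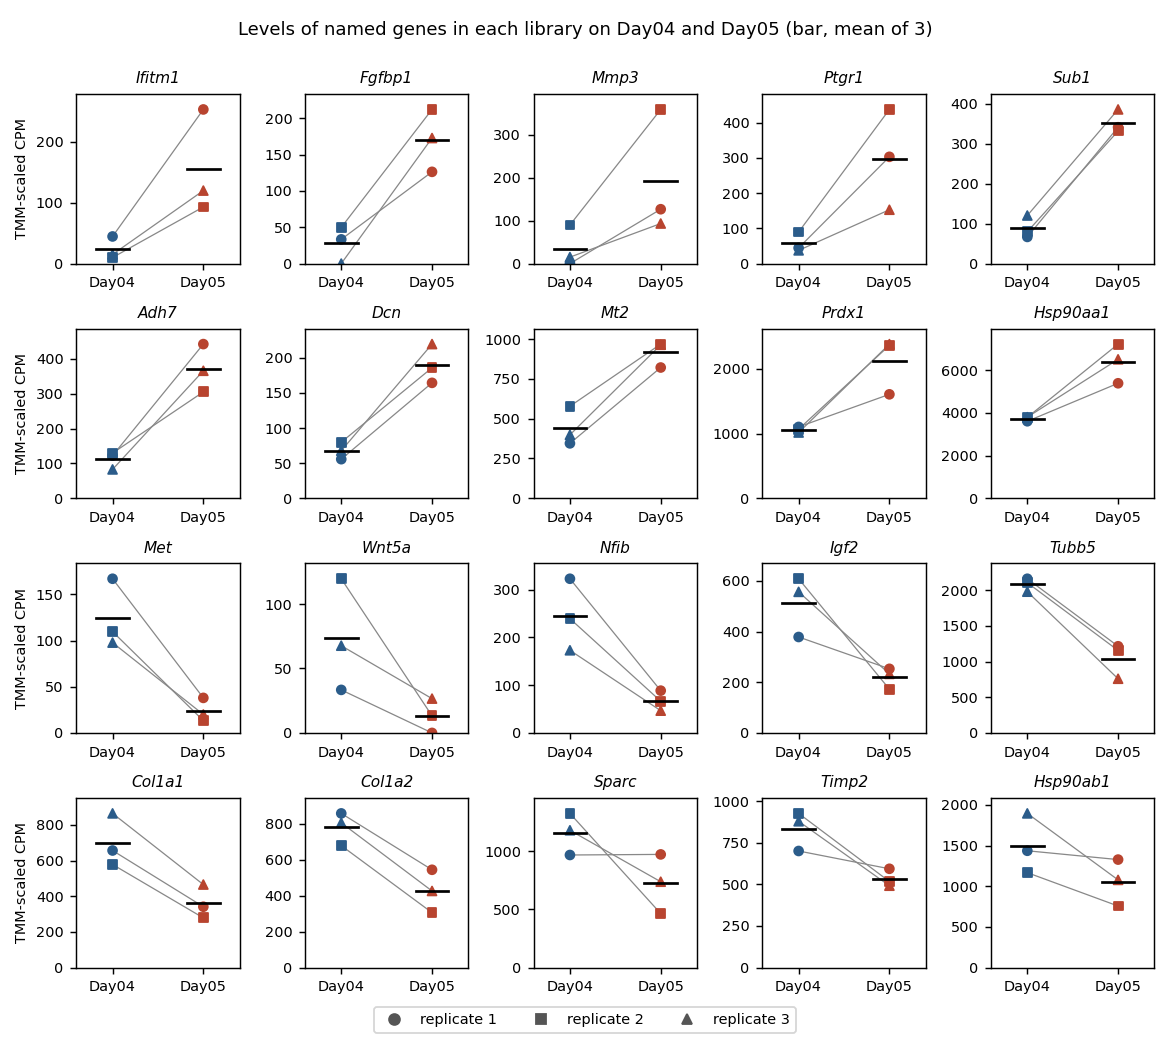
Levels of 20 named genes in TMM-scaled CPM in each library on Day04 (blue) and Day05 (red), with a line joining the libraries of a replicate and a bar at the mean of 3. The first 10 genes rose and the last 10 fell; the days overlap in Sparc and Hsp90ab1.

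Of the matrix list 30 members were tested, and 4 fell, where 1.37% of all tested genes fell, while Dcn alone rose, near the 3.63% of all tested genes, with a median log2 fold change of -0.20. Col1a1 (chr11:94936224-94953042), a chain of collagen I, was at 657, 578 and 865 CPM on Day04 and 341, 279 and 466 CPM on Day05. Every Day05 library was below every Day04 library, with a log2 fold change of -0.91 ± 0.22 (SE, edgeR adjusted p 0.00465, 0.0536 and 0.0625 without replicates 2 and 3). Col1a2, the other chain of collagen I, was at 857, 678 and 805 CPM on Day04 and 543, 305 and 426 CPM on Day05. It fell likewise without overlap, with a log2 fold change of -0.88 ± 0.22 (SE, edgeR adjusted p 0.00492, 0.0686 and 0.124 without replicates 2 and 3). Sparc, a collagen-binding glycoprotein, was at 968, 1326 and 1180.5 CPM on Day04 and 973, 464 and 738 CPM on Day05. Replicate 1 hardly moved and the days overlapped, with a log2 fold change of -0.68 ± 0.19 (SE, edgeR adjusted p 0.0143, 0.506 and 0.154 without replicates 2 and 3). Timp2, an inhibitor of matrix proteases, fell by 0.65 ± 0.21 (adjusted p 0.0432, 0.296 and 0.341 without replicates 2 and 3). The remaining 25 members did not pass, among them Col3a1 with a log2 fold change of -0.37 ± 0.40 (adjusted p 0.659) and Timp3 with -0.77 ± 0.30 (adjusted p 0.115).

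Among 25 mesenchymal regulators and surface genes Lgals3 alone rose, and among 25 actin and contractile genes Myl6 alone, near the 3.63% of all tested genes, with medians of 0.04 and -0.02; neither list held a faller, where 1.37% of all tested genes fell. Acta2, smooth muscle actin, had a log2 fold change of -0.90 ± 0.34 (adjusted p 0.102) and did not pass.

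The 12 largest falls were of genes from different pathways. Met (chr6:17463800-17573980), the receptor of hepatocyte growth factor, was at 167, 109.7 and 97.7 CPM on Day04 and 37.9, 13.3 and 20.0 CPM on Day05. The days did not overlap, with a log2 fold change of -2.28 ± 0.64 (SE, edgeR adjusted p 0.0167, 0.0815, 0.132 and 0.124 without replicates 1, 2 and 3) and with the lowest Day04 library far above the highest of Day05. Wnt5a (chr14:28504750-28527448), a ligand of noncanonical WNT signalling, was at 33.4, 119.6 and 67.7 CPM on Day04 and 0, 13.3 and 26.6 CPM on Day05. Replicate 1 was lowest on both days and the highest Day05 library was just below the lowest Day04 library, with a log2 fold change of -2.04 ± 0.66 (SE, edgeR adjusted p 0.0457, 0.151, 0.458 and 0.111 without replicates 1, 2 and 3). 

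Nfib (chr4:82290173-82705750), a nuclear factor I transcription factor, was at 323, 239 and 173 CPM on Day04 and 88.5, 66.3 and 46.6 CPM on Day05. Each Day05 library was below all of Day04, with a log2 fold change of -1.90 ± 0.42 (SE, edgeR adjusted p 0.00100), and this call held without each replicate. Trip12 (chr1:84721189-84840516), an E3 ubiquitin ligase, was at 245, 179 and 248 CPM on Day04 and 75.8, 66.3 and 53.2 CPM on Day05. It fell without overlap, with a log2 fold change of -1.80 ± 0.37 (SE, edgeR adjusted p 0.000303, 0.0859 without replicate 3). Nufip2 (chr11:77686155-77741921), an RNA-binding protein, was at 323, 239 and 293 CPM on Day04 and 88.5, 53.1 and 113 CPM on Day05. The days were well apart, with a log2 fold change of -1.60 ± 0.35 (SE, edgeR adjusted p 0.000931), and leaving out a replicate did not end the call.

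The remaining large falls were those of Nrd1, the protease nardilysin, at -2.40 ± 0.62 (adjusted p 0.00738, 0.365 without replicate 3), Aaas, a nuclear pore protein, at -2.06 ± 0.55 (adjusted p 0.0115, 0.260 and 0.182 without replicates 2 and 3), Dcxr, a sugar and carbonyl reductase, at -1.93 ± 0.57 (adjusted p 0.0255, 0.242, 0.0686 and 0.154 without replicates 1, 2 and 3), the selenoprotein Selenow at -1.68 ± 0.44 (adjusted p 0.00778, 0.0783, 0.0951 and 0.111 without replicates 1, 2 and 3) and the SR protein kinase Srpk1 at -1.50 ± 0.46 (adjusted p 0.0309, 0.252, 0.0574 and 0.342 without replicates 1, 2 and 3). In all 5 the days did not overlap. Outside the rule, and chosen after their values were seen, Hif1a, the oxygen-regulated transcription factor, fell by 1.27 ± 0.31 (adjusted p 0.00330, 0.123 without replicate 1) and the matrix proteoglycan Vcan by 1.14 ± 0.26 (adjusted p 0.00150, 0.137 without replicate 3).

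Igf2 (chr7:142650766-142666816), an imprinted growth factor, was at 378, 608 and 556 CPM on Day04 and 253, 173 and 233 CPM on Day05. All Day05 libraries were lower, with a log2 fold change of -1.20 ± 0.27 (SE, edgeR adjusted p 0.00113, 0.0846 and 0.0555 without replicates 2 and 3), and an annotated transcript, Gm49394, overlaps it on the same strand. It was the 1 called gene of 14 on the list of the IGF axis and imprinted genes, whose median was -0.44, and the list of 10 TGF-β responsive genes had a median of -0.43 with Col1a1 as its 1 called gene. Single calls in lists of this size stand beside 5% of all tested genes called.

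On the lists of mitosis and replication genes, Tubb5 and Uhrf1 fell and H2afz rose. Tubb5 (chr17:35833921-35838306), a β-tubulin, was at 2159, 2104 and 1978 CPM on Day04 and 1213, 1154 and 758 CPM on Day05. The fall left the days well apart, with a log2 fold change of -1.04 ± 0.16 (SE, edgeR adjusted p 1.46e-06), and it held without each replicate. With H2afz it made up the called members of the 37 mitosis and G2/M genes tested, whose median was 0.01, against 5% of all tested genes called. Uhrf1 (chr17:56303321-56323486), which brings DNA methyltransferase to newly copied DNA, was at 167, 189 and 135 CPM on Day04 and 50.6, 79.6 and 26.6 CPM on Day05. Its days did not overlap, with a log2 fold change of -1.71 ± 0.45 (SE, edgeR adjusted p 0.00882, 0.0613, 0.0574 and 0.196 without replicates 1, 2 and 3), and 1 copy shares its 3′ end. It was the 1 called gene of 13 on the replication list (median -0.11, with 5% of all tested genes called); Mcm6 and Mcm7, subunits of the replicative helicase, had log2 fold changes of -1.08 ± 0.41 (adjusted p 0.107) and -1.02 ± 0.42 (adjusted p 0.140). The translation factor Eif4g2 fell by 0.69 ± 0.18 (adjusted p 0.00871, 0.219, 0.0744 and 0.0555 without replicates 1, 2 and 3), and with Naca it was the called pair of the 35 translation factors (median -0.14), near the 5% of all tested genes.

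**Figure D4:**
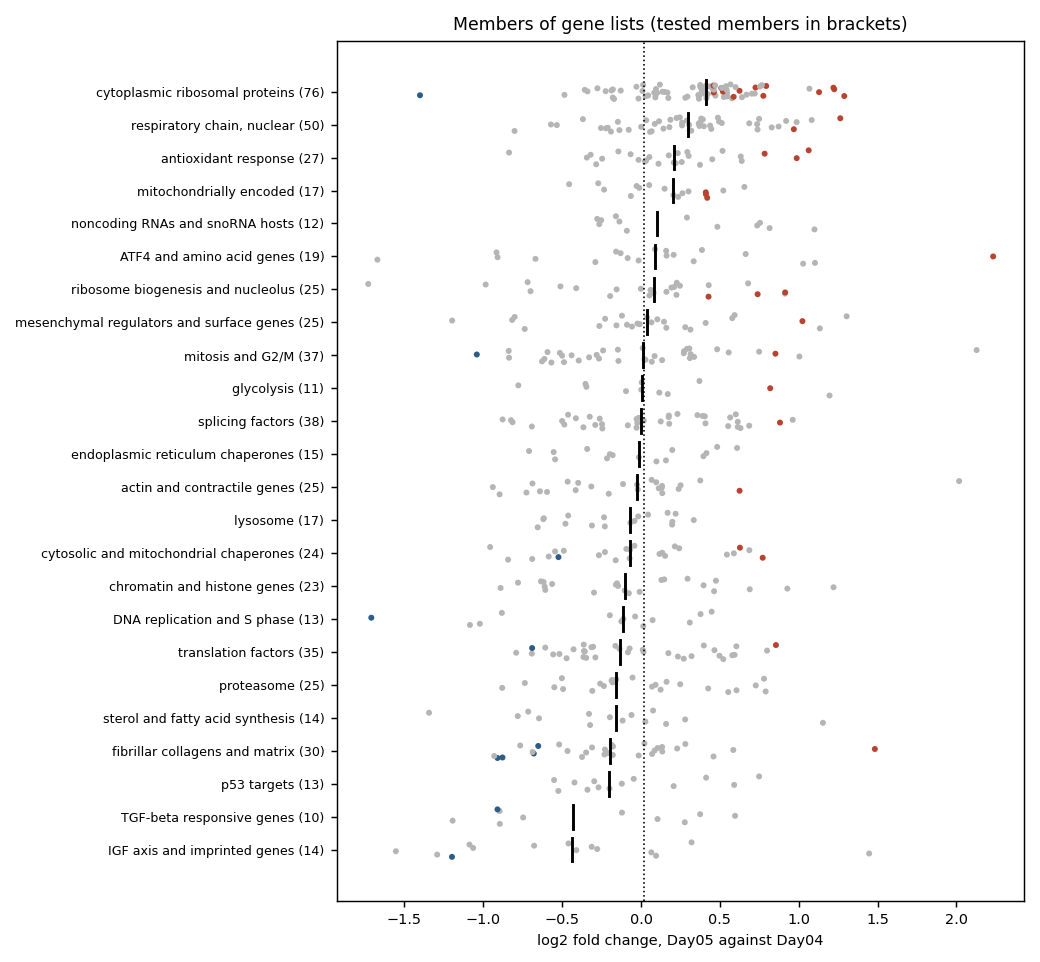
Each row is a gene list with 10 or more tested members, each point a member's log2 fold change, Day05 against Day04, red or blue where called higher or lower and grey where not; the black bar is the median of the list and the dotted line that of all tested genes (0.02). Medians run from -0.44 for the IGF axis and imprinted genes to 0.41 for the ribosomal proteins.

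No member was called on the lists of p53 targets (13 tested, median -0.20), sterol and fatty acid synthesis (14, -0.16), endoplasmic reticulum chaperones (15, -0.01), lysosome (17, -0.07), proteasome (25, -0.16), chromatin and histone genes (23, -0.10), and noncoding RNAs and snoRNA hosts (12, 0.10). The same held for DNA repair (4 tested, median 0.39), low-oxygen response (5, 0.24), immediate early genes (6, -0.10) and WNT targets (2, -0.34). With the pluripotency list below, 12 lists had no call, and at an unadjusted p under 0.05 they held 13 higher and 11 lower genes. Splicing factors gave Srsf3 alone of 38 (median 0.00), glycolysis Pgk1 alone of 11 (0.00), amino acid genes Slc7a3 alone of 19 (0.09), interferon genes Ifitm1 alone of 4 (-0.05) and chemokines Spp1 alone of 7 (-0.41). A single riser in each of these lists is to be read against the 3.63% of all tested genes that rose.

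Epithelial and pluripotency genes were near the limit of detection. The 30 epithelial genes summed to 30, 45 and 42 counts on Day04 and 33, 46 and 81 on Day05, or 316, 437 and 299 per 1000000 counts of a library and 393, 566 and 484. The days overlapped, and of the list only Fgfbp1, described above, and Perp passed the low-count filter, Perp with a log2 fold change of -0.30 ± 0.33 (adjusted p 0.676). Cdh1, the epithelial cadherin, had 0, 0 and 1 counts on Day04 and 2, 2 and 5 on Day05, which was 9.16-fold higher after scaling to the libraries' totals, with a 95% counting interval of 1.27 to 401; the 1 count of Day04 lies under the floor of 3 counts, so the size of the ratio is uncertain. Epcam, an epithelial adhesion molecule, had 1 count on Day04 and 5 on Day05, a ratio of 5.09 (interval 0.569 to 241).

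The 34 pluripotency genes summed to 5, 17 and 28 counts on Day04 and 13, 34 and 36 on Day05. In each replicate Day05 was higher, but replicate 1 of Day05 was below replicates 2 and 3 of Day04. Of 3 that passed the filter 0 were called: Apela, a peptide ligand of the apelin receptor, had 2 and 12 counts and a log2 fold change of 2.38 ± 0.88 (adjusted p 0.0963), L1td1, an RNA-binding protein, one of 2.02 ± 0.89 (adjusted p 0.179) and the glucose transporter Slc2a3 one of 1.20 ± 0.96 (adjusted p 0.528). Sall4 had 0 counts on Day04 and 3 on Day05, and Nanog 0 and 1, and for both genes both groups lay at or under the floor of 3 counts. Of the endogenous symbols of the cassette factors, Pou5f1, which encodes Oct4, had 0 and 1 counts, Sox2 1 and 1, Klf4 5 and 3 and Myc 4 and 1. Whether transcripts of the cassette are counted under these symbols is not known, so these counts do not measure the cassette. Among the genes of the knockdowns, Wdr5 had 9 and 5 counts, Brca1 10 and 9 and Bard1 2 and 3. Thy1, a fibroblast surface protein, had 80 counts on Day04 and 94 on Day05 (ratio 1.20, interval 0.878 to 1.63). For Epcam, Klf4 and Thy1 no difference was detectable at this depth, with a ratio for Klf4 of 0.610 (interval 0.0948 to 3.14), and the intervals cover counting error only.

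Most called genes were at their extreme on Day05 within the time course. The mean of Day05 was above every other day in 101 of the 109 risers and below every other day in 34 of the 41 fallers, whereas it was highest in 715 and lowest in 527 of all 3002 tested genes. The calls used the Day05 libraries, so that these counts are a description. On Day06 the mean of 77 risers lay between those of Day04 and Day05, that of 30 was back below Day04 and that of 2, Dcn and Mt2, was beyond Day05. Of the fallers 34 lay between and 7 were back above Day04. The step to Day06, which shares the Day05 libraries, was a called rise for some fallers named by the rule. These were Col1a2, Nfib, Met, Nrd1, Selenow, Trip12, Nufip2, Uhrf1, Tubb5 and Hsp90ab1 (edgeR adjusted p 2.47e-10 to 0.0306). It was not called for Col1a1, Igf2, Wnt5a, Aaas, Dcxr, Srpk1, Rpl28, Eif4g2, Sparc and Timp2 (0.0598 to 0.641). Col1a2 had means of 780, 425 and 746 CPM on Day04, Day05 and Day06. Days that the comparison did not use can be set side by side: the Day06 mean was above the Day03 mean in 73 of 109 risers and 17 of 41 fallers, and in 1571 of the 3002 tested genes, with medians of 0.25, -0.15 and 0.03 for the difference of log2(CPM + 1).

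The courses differed between genes. Fgfbp1 had means of 2.73 CPM on Day00, 11.6 on Day03, 27.7 on Day04, 171 on Day05 and 96.8 on Day06. Adh7 was already raised on Day03, with 28.5, 116, 112, 371 and 299 CPM on those days. Mt2 climbed over several days, with 50.8, 241, 441, 918 and 973 CPM. Ifitm1 had already been at 209 CPM (SD 121) on Day03, and fell to 23.2 on Day04 before it rose. Mmp3, Dcn, Spp1 and Lgals3 also fell to Day04 before they rose, and those falls were called (edgeR adjusted p 4.41e-09 to 0.0292). On Day03, Day04 and Day05, Mmp3 had means of 119, 34.9 and 193 CPM and Dcn of 183, 67.7 and 190. Spp1 had 1029, 328 and 726 CPM on those days, and Lgals3 476, 279 and 579. Tubb5 alternated, with 900.2 CPM on Day03, 2080.0 on Day04, 1042 on Day05 and 2484 on Day06, and so did Uhrf1 with 29.1, 164, 52.3 and 145 CPM. Sparc went down from 3179.9 CPM on Day00 to 1158 on Day04 and 725 on Day05, and was at 1035 on Day06.

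**Figure D5:**
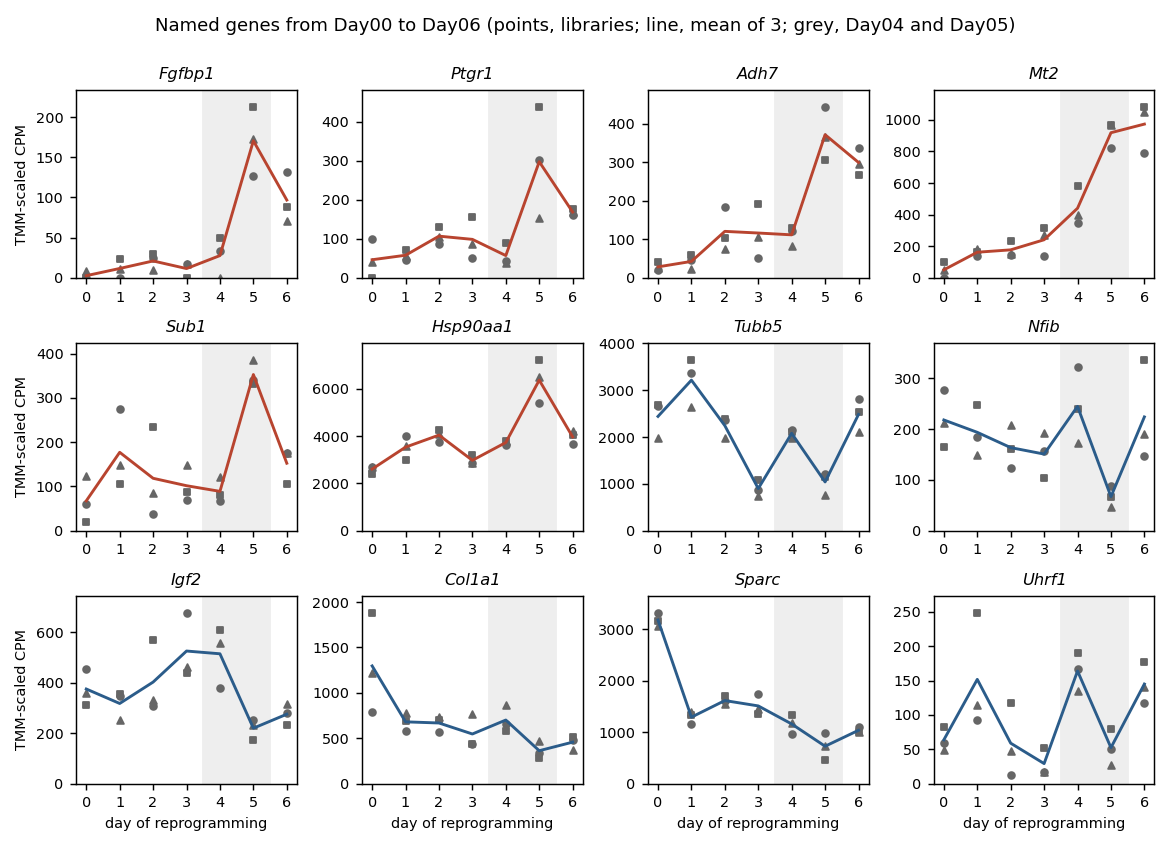
Levels of 12 named genes in TMM-scaled CPM from Day00 to Day06, with a point per library and a line through the means of 3; Day04 and Day05 are shaded. Fgfbp1, Ptgr1, Sub1 and Hsp90aa1 peak on Day05, Mt2 is as high on Day06, and Tubb5 and Uhrf1 are low on Day03 and Day05.

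The neighbouring steps changed more genes: 379 between Day03 and Day04 (12.6% of tested genes) and 246 between Day05 and Day06 (8.19%). These steps share the Day04 or the Day05 libraries with the present one. A test of whether a gene's change to Day05 differed from its change to Day04 called 105 genes (3.5%), and of whether its change to Day06 differed from that to Day05 278 genes (9.26%). For Tubb5 the log2 fold change was 1.22 to Day04 and -1.04 to Day05, a difference of -2.26 (adjusted p 2.99e-11). The step to Day06 was 1.28. Ifitm1 had steps of -3.08 and 2.71, a difference of 5.79 (adjusted p 1.12e-05). Col1a1 changed by 0.30 to Day04, which did not pass, and the difference of its steps was -1.21 (adjusted p 0.0459). For Fgfbp1 the difference of the steps to Day05 and Day04 was 1.87 (adjusted p 0.576), and that of the steps to Day06 and Day05 -3.59 (adjusted p 0.000206). Mt2 had a rise to Day04 as well, 0.89 (adjusted p 0.0119), and the 2 rises did not differ beyond their error, with a difference of 0.18 (adjusted p 0.897).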

How the data were processed

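CEL-Seq2 libraries were made from bulk RNA of MEFs and sequenced as 3 pools, 1 per replicate. The authors mapped reads to mm10 with Bowtie2, counted molecules per gene in the CEL-Seq2 pipeline with GENCODE and deposited UMI-corrected counts of 50507 symbols in 129 columns. The authors also deposited log2 values normalized with scater and scran, after removal of poor libraries, in 127 columns. 7 count columns and 5 normalized columns were not used, since their names matched no single library in both tables.

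The deposited counts of 122 libraries were fitted with edgeR 4.0.16 in R 4.3.3 (TMM scaling, filterByExpr, quasi-likelihood F-test) with a term for each of 41 conditions and for the replicate, on 79 residual degrees of freedom, and p-values were adjusted by Benjamini-Hochberg over 3002 genes. The standard error is the log2 fold change over the square root of F. CPM are counts per 1000000, TMM-scaled over the tested genes. The replicate number marks a shared sequenced pool and was used as a block; deviations of same-numbered Day04 and Day05 libraries correlated at r = 0.0701, 0.158 and 0.246, against -0.178 to 0.021 for other pairs.

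Symbols were matched to GENCODE on GRCm38 (2954 of 3002). A copy is a gene that shares at least 0.5 of the 31-base words in the last 400 transcript bases. Promoters came from RefSeq. Intervals of ratios of counts are exact binomial (95%), and 3 counts were taken as the floor.

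Genes were named as the 12 largest changes in each direction with a mean of at least 50 CPM on either day and the same sign in 3 replicates, every called member of 32 gene lists, and 13 genes as counts. The comparison, members and lists were chosen with earlier results of these data known. Alternatives were RLE size factors, DESeq2 1.42.0, limma 3.58.1 on the deposited log2 values (also without the block), no low-count filter, no block, fewer libraries, and each replicate left out. A called gene of the ribosomal protein list is not reported here.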

Additional observations from a re-analysis of the deposited data

Results flagged for a closer look

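A pair of tests asked whether the change at one step of the time course differed from the change at the step before it, and both called genes. The change to Day05 differed from the change to Day04 in 105 genes, and the change to Day06 differed from the change to Day05 in 278 genes. Neighbouring steps share the libraries of the day between them, so that a deviation on that day enters both steps with opposite signs, and its part in these counts was not tested.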

How the results depend on the processing

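The main fit called 150 genes between Day04 and Day05 (109 higher, 41 lower), and each alternative is given by its own total of calls. With limma on the deposited log2 values, which had no replicate block and covered 10568 genes, there were 5 (4 higher, 1 lower). Of the 150, limma kept 4 risers and 0 fallers. No low-count filter gave 50 (41 and 9) over 30566 genes, and no replicate block gave 21 (17 and 4). Leaving out a replicate gave 23 to 112 genes, 18 to 93 higher and 5 to 19 lower. The lower genes numbered 72 with the time course libraries alone and 72 with the Day04 and Day05 libraries alone. RLE size factors (148 genes) and DESeq2 (142) stayed within 1.5 times of the total. No named gene changed direction under any alternative run that gave it an adjusted p, and some runs did not do so for every named gene.

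Without the replicate block the call counts of the other tests were 220 between Day03 and Day04, 66 between Day05 and Day06, 22 for the change to Day05 against that to Day04 and 74 for the change to Day06 against that to Day05. Leaving out a replicate gave 156 to 217, 90 to 171, 17 to 42 and 66 to 222. The time course libraries alone gave 162 for the change to Day05 against that to Day04. Of 66 named genes 59 kept the call under RLE size factors, 16 without the block, 2 with limma, and 46, 24 and 13 without replicates 1, 2 and 3. The causes of these differences were not tested. At 81284 to 167426 counts a library, 1 count is worth several CPM, so that genes at low CPM rest on few counts.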
